A study of Mus musculus and Homo sapiens with 16 samples.

Results

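Of the 6472 peaks in the KLF5 list of mouse skin epithelium at embryonic stage E17.5, 2333 lay at active promoters. A peak was taken as such when it was on chromosomes 1 to 19, X or Y, overlapped by at least 1 base both a peak of acetylated histone H3 lysine 27 (H3K27ac) and a peak of open chromatin (ATAC-seq) of the same stage, and had its summit, the base of highest enrichment, within 1 kb of an annotated gene start. The peaks were thus chosen by measured values, the calls of all 3 peak lists and the summit position, and neither their overlap with both marks nor their closeness to a gene is a result. All these values come from single peak lists of 1 KLF5, 1 H3K27ac and 1 ATAC-seq sample, so no peak value has a replicate. The 3 samples were labelled wild type C57BL/6, although the ATAC-seq sample has "Het" in its title, and were cells of peeled epidermis sorted as DAPI-, CD45- and Integrin A6+. RNA was measured in cells sorted by the same markers from Klf5+/- and Klf5-/- C57BL/6 embryos at E17.5, with 3 libraries per genotype. A second RNA set has the letters HFD in its titles, with no explanation in the labels. It held 2 libraries each of Klf5+/- and Klf5-/- C57BL/6 epidermis that was peeled and ground without sorting, with no stage given. The labels name no Cre driver and do not say which part of Klf5 was deleted, nor whether each library is its own animal, and a p-value here covers the spread between these libraries alone.

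KLF5 is a zinc finger transcription factor of the Krüppel-like family, whose members bind GC-rich stretches and CACCC-type boxes in DNA. It is known for its expression in dividing cells of stratified and simple epithelia. H3K27ac marks nucleosomes at active promoters and enhancers, and ATAC-seq marks DNA that a transposase can reach, which at a promoter lies around the gene start between well-placed nucleosomes.

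The sequences under 13 of these summits are shown because they carry the 2 kinds of promoter described below, those with and those without a KLF box near the summit. A KLF box here is any of 4 spellings of the family's recognition sequence on either strand: CCCCGCCC, which SP factors also bind, CCCCACCC, CCACACCC and CCACGCCC. Each sequence is on its gene's strand, 5′ to 3′, from the RefSeq promoter table of build GRCm38.p6 (mm10), covers up to 60 bases either side of the KLF5 summit within the stretch before the RefSeq start, extended where a KLF box crosses its edge, and has the bases of KLF boxes in capitals.
The first 3 belong to genes with some of the highest KLF5 enrichment: Rnf44, a RING finger protein gene, at chr13:54694000-54694120 on the minus strand, Ccdc85c, a coiled-coil protein gene, at chr12:108275542-108275643 on the minus strand, and Tex264, a receptor for autophagy of the endoplasmic reticulum, at chr9:106685953-106686042 on the minus strand.
Rnf44: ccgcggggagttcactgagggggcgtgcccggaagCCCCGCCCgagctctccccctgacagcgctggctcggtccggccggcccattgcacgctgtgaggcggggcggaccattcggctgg
Ccdc85c: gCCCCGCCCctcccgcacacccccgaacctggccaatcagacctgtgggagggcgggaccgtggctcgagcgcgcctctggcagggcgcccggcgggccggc
Tex264: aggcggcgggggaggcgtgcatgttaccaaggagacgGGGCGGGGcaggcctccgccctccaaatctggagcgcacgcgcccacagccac
The next show 2 or more boxes in the stretch: Adam10, a protease that releases growth factors and cuts Notch, at chr9:70678742-70678870 on the plus strand, Mafk, a small MAF factor, at chr5:139791323-139791443 on the plus strand with 3 boxes of the CACG spelling, and Pard6b, a cell polarity gene, at chr2:168080777-168080897 on the plus strand with boxes of 2 spellings.
Adam10: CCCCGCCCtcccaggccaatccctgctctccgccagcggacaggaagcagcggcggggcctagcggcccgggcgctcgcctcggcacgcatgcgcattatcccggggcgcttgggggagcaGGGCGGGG
Mafk: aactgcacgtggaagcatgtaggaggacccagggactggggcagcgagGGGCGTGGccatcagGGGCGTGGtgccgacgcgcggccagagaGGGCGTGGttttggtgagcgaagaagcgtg
Pard6b: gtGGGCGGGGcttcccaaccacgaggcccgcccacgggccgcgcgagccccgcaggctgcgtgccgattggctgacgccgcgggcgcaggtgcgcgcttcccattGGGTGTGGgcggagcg
Lipid genes follow: Srebf2, the master regulator of cholesterol synthesis, at chr15:82147095-82147215 on the plus strand, the pathway enzymes Mvk at chr5:114444091-114444211 and Hmgcs1 at chr13:119690237-119690350, both on the plus strand, and Hsd17b12, a reductase of fatty acid elongation, at chr2:94158016-94158136 on the minus strand.
Srebf2: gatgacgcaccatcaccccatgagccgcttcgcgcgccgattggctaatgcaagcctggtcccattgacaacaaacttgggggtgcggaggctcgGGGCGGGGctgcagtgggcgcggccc
Mvk: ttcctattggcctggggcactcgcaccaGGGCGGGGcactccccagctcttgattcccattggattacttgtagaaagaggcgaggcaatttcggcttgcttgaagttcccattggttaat
Hmgcs1: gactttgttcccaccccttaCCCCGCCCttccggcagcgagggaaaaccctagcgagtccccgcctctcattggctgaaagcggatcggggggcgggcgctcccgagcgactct
Hsd17b12: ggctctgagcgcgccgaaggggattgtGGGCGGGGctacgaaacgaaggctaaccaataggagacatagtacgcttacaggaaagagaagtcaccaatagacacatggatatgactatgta
The last 3 hold no box: Tubb2a, a beta-tubulin gene, at chr13:34078011-34078131 on the minus strand, Cers3, the ceramide synthase of very long acyl chains in epidermis, at chr7:66743420-66743503 on the plus strand, and Nf2, the Hippo pathway gene that encodes merlin, at chr11:4849591-4849711 on the minus strand.
Tubb2a: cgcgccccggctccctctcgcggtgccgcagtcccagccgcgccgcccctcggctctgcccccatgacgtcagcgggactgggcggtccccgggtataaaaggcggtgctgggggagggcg
Cers3: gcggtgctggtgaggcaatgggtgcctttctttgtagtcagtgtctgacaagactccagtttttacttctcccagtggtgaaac
Nf2: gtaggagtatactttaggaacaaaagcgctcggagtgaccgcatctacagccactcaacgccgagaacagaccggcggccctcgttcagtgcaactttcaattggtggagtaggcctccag
Of the other motifs searched, CCAAT, the sequence bound by NF-Y, occurred 3 times in the Mvk stretch, 2 times each in those of Hsd17b12 and Pard6b, and 1 time each in those of Srebf2, Hmgcs1, Adam10, Ccdc85c and Nf2. The Tubb2a stretch held 1 cAMP response element, TGACGTCA, and 1 TATAAA.

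Most KLF5 peaks near a gene start lay at promoters that carried both marks. Of 2544 KLF5 peaks with a summit within 1 kb of a gene start, 2333 (91.7%) overlapped both, 144 overlapped ATAC alone, 39 H3K27ac alone and 28 neither. The promoter peaks made up 52.6% of the 4437 KLF5 peaks that overlapped both marks, and the other 2104 lay farther from any gene start, at a median of 17582 bases. Read the other way, 2271 of 7624 ATAC peaks at active promoters (29.8%) overlapped a KLF5 peak. That share was 17.8% in the lowest of 4 equal classes of these promoters by H3K27ac fold enrichment and 43.1% in the highest, and by ATAC fold enrichment it ran from 21.7% in the lowest class to 34.6% in the third and 33.0% in the highest. These shares describe the same calls that chose the peaks, from 1 sample per assay. An overlap of 1 base also depends on peak width. The median ATAC peak width was 947 bases at active promoters with KLF5 and 810 without, and the median H3K27ac peak width 917 and 704. The part of width was not tested. Chromosome X held 15 of the promoter peaks and chromosome Y none.

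KLF5 enrichment at promoters spanned a narrow range. The fold enrichment over the local background, which is the authors' peak caller's own value, had a median of 4.10, with quartiles at 3.69 and 4.62 and extremes of 2.32 and 10.3. The median over distal active KLF5 peaks was also 4.10, and the promoter peaks were narrower, with a median width of 344 against 385 bases. The marks around the 2 kinds of peak differed more than KLF5 did: the median H3K27ac fold enrichment was 5.01 at the promoter peaks and 3.61 at the distal ones, and the median ATAC fold enrichment 8.22 and 6.84. At active promoters without a KLF5 peak the medians were 4.39 for H3K27ac and 7.71 for ATAC. Among the promoter peaks, KLF5 fold enrichment ran weakly with that of H3K27ac (Spearman's rho 0.15) and of ATAC (rho 0.13) over 2333 peaks that share the same 3 libraries, and hardly at all with distance from the gene start (rho -0.03).

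The KLF5 summit sat just upstream of the gene start. Its median position was 68 bases before the nearest start, with quartiles at 170 bases before and 47 bases after, and 1539 of the 2333 summits (66.0%) lay upstream. Within 100 bases of a start lay 947 summits (40.6%), and within 200 bases 1659 (71.1%). The nearest ATAC summit under the same peaks had a median position 4 bases after the start, with quartiles at 175 bases before and 129 bases after. Those ATAC summits thus lay widely on both sides of the start, and the median is not a common place. The nearest H3K27ac summit had a median 43 bases before the start, with quartiles at 144 bases before and 82 bases after. The median distance from the KLF5 summit was 123 bases to the ATAC summit and 81 bases to the H3K27ac summit. The KLF5 summit was closer to the H3K27ac summit in 1361 promoter peaks (58.3%) and closer to the ATAC summit in 961 (41.2%), against 51.2% and 48.4% of the distal active peaks. At active promoters without KLF5 the ATAC summits lay at a median of 79 bases after the start, and 29.7% of them were upstream. Their quartiles were 66 bases before and 160 bases after. The ATAC summits of active promoters with KLF5 lay at a median of 19 bases after the start.

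**Figure D1:**
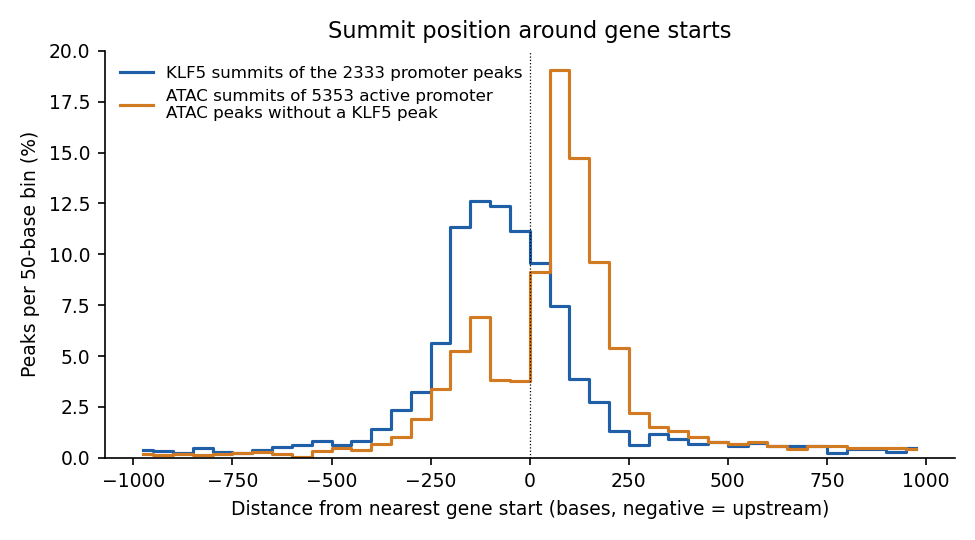
Position of summits relative to the nearest gene start, as the percent of peaks in each bin of 50 bases, for the KLF5 summits of the 2333 promoter peaks (blue) and the ATAC summits of the 5353 active promoter ATAC peaks without a KLF5 peak (orange). The KLF5 summits gather upstream of the start, with a median at -68 bases. Most ATAC summits lie downstream of it, with a median at 79 bases, and a smaller group lies upstream, with 6.93% in the bin from -150 to -100 bases.

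The limit of 1 kb cut a thin tail of the distribution. Only 216 promoter peaks had their summit over 500 bases from the start. The farthest inside the limit were at 5031425E22Rik (999 bases downstream), Igf1r, the receptor of insulin-like growth factor (990 bases upstream), and Stat6, a cytokine-signalling factor (990 bases upstream), with KLF5 fold enrichments of 3.73, 3.83 and 3.80. Just outside it were peaks near Psapl1 (1015 bases upstream, 4.10), Sertad3 (1022 bases downstream, 3.395) and Morf4l1 (1025 bases downstream, 4.57), of which Sertad3 and Morf4l1 also had another KLF5 peak at their own start. Paired gene starts were common: 539 promoter peaks (23.1%) had starts on both strands within 1 kb, against 18.8% of the active promoters without KLF5.

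The genes with the highest KLF5 enrichment had varied functions. The top value, 10.3, belonged to a peak 807 bases before the predicted gene Gm10722 at chr9:2999916-3000657, near the start of the chromosome 9 assembly, which also had the highest H3K27ac fold enrichment of all promoter peaks, 11.5, and whose gene is listed at 0 in every E17.5 library. It was followed by Kmt2a, a histone H3 lysine 4 methyltransferase (8.41), Gys1, glycogen synthase (8.36), Kat6a, a histone acetyltransferase (7.84), Ccdc85c (7.72) and Rnf44 (7.56). Avpi1, a gene named for its induction by vasopressin, had 7.45, the zinc finger gene Zfp41 7.42, Hspa8, the constitutive HSP70 chaperone, 7.40, Rbm42, which encodes an RNA-binding protein, 7.32, and Mrpl45, a gene of the mitochondrial ribosome, 7.24. The last 4 of the top 15 were Gm17435 (7.19), 1810013L24Rik (7.14), Tex264 (7.08) and Ass1, the urea cycle enzyme argininosuccinate synthase (7.06). Except for Gm10722, these summits lay within 373 bases of their gene start, and those of Hspa8 and Mrpl45 within 4 bases.

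KLF boxes were more frequent in these promoters than in active promoters without KLF5. The summits of 1344 promoter peaks (57.6%) fell in a RefSeq promoter window, which runs from 250 bases before to 50 bases after a gene start, and they touched 1646 windows, some of which overlap. A KLF box occurred in 1101 of these windows (66.9%), and 2 or more in 618 (37.5%). Of 4007 windows that lay wholly inside an active promoter ATAC peak without KLF5, 48.1% held a box and 19.04% held 2 or more. Of 2150 windows chosen in the same way, wholly inside an active promoter ATAC peak that had KLF5, 64.5% held a box and 35.3% held 2 or more. Of all 32817 windows, 29.7% held one. Each of the 4 spellings was more frequent under KLF5 than without it: CCCCGCCC in 52.2% against 35.1%, CCACGCCC in 19.3% against 11.1%, CCCCACCC in 14.7% against 10.0% and CCACACCC in 6.32% against 2.72%; in all windows their shares were 17.6%, 5.33%, 9.99% and 3.56%. In the 150 bases nearest the start the shares with any box were 48.4% and 35.7%, against 21.3% of all windows.

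Base composition moves with these counts, and the order held within each class of it. The median GC content was 64.7% in the windows under KLF5 and 64.0% in the windows without. Among windows of 50 to 60% GC, a box occurred in 216 of 418 (51.7%) under KLF5 and in 32.0% of 1078 without. Among those of 60 to 70% GC it occurred in 590 of 846 (69.7%) and in 51.6% of 1769. Above that the shares were 82.1% of 352 and 66.2% of 982, and below 50% GC a box occurred in 6 of 30 and in 11.8% of 178.

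**Figure D2:**
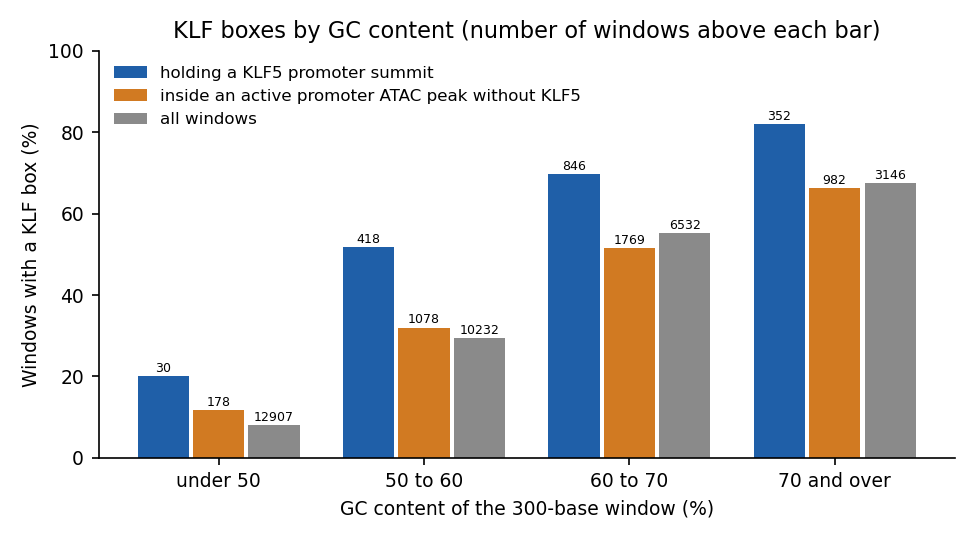
Percent of RefSeq promoter windows with at least 1 KLF box in 4 classes of GC content, for windows holding a KLF5 promoter summit (blue), windows inside an active promoter ATAC peak without KLF5 (orange) and all windows of the table (grey), with the number of windows above each bar. The blue bar is the highest in each class, and reaches 82.1%.

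Boxes were densest at and just downstream of the KLF5 summit. Counted in steps of 25 bases along the gene's strand, there were 6.04, 5.98 and 6.05 boxes per 1000 bases in the 3 steps that follow the summit, and 5.06 in the step before it. The density was 1.11 at 225 to 250 bases upstream and 2.77 at the same distance downstream. Around the ATAC summits of active promoters without KLF5 it was 1.60 and 1.28 in the 2 steps adjoining the summit, lowest (0.826) at 175 to 200 bases upstream and highest (3.78) at 100 to 125 bases downstream. Only ATAC summits inside a window entered, and a window ends 50 bases after the start, while the median of all these summits lay 79 bases after it. Their windows can overlap, so a box may count more than once. The 2 densities are thus centred on unlike summits and places and are not a matched comparison. Of the 909 promoter peaks with a window and a box, the nearest box lay at a median of 44 bases from the summit, and 493 (54.2%) had one within 50 bases. The number of boxes hardly moved with the enrichment: the median KLF5 fold was 4.07 with no box, 4.19 with 1, 4.15 with 2 and 4.28 with 3 or more. Peaks with no box numbered 435, or 32.4% of those with a window, and Tubb2a, with a KLF5 fold of 6.75, was among those whose shown stretch has none.

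**Figure D3:**
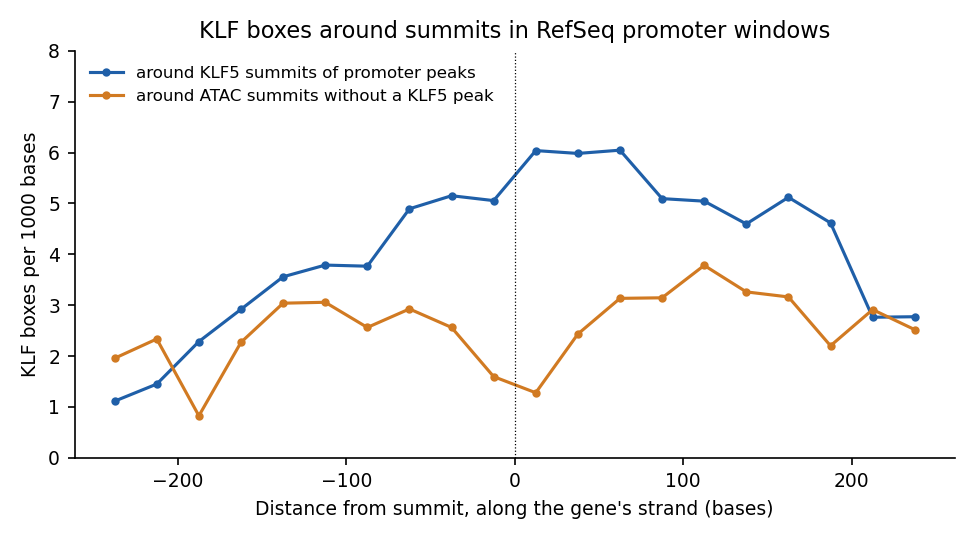
KLF boxes per 1000 bases in steps of 25 bases around the KLF5 summits of promoter peaks (blue) and around the ATAC summits of active promoters without a KLF5 peak (orange), within RefSeq promoter windows and along the gene's strand. The blue line lies between 5.98 and 6.05 in the 3 steps after the summit, and the orange line is at 1.28 in the first of them.

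Other promoter motifs were counted the same way. CCAAT was found in 48.0% of windows under KLF5, 38.4% without it and 37.4% of all windows, and the cAMP response element TGACGTCA in 6.26%, 4.14% and 1.79%. The ETS core CCGGAAG went the other way, with 21.4% under KLF5 against 25.8% without, and 8.86% of all windows. NRF1 (GCGCATGC) was found in 6.26% and 7.41%, YY1 (AAGATGGC) in 5.89% and 6.34%, the E-box CACGTG in 11.8% and 11.0%, and TATAAA in 4.98% and 4.59%, against 2.71%, 2.74%, 7.15% and 13.6% of all windows. Motifs of factors known from epidermis were searched too. AP-1 (TGANTCA) was found in 4.80% under KLF5, 3.05% without it and 7.81% of all windows, and its order against all windows depended on GC content: between 50 and 60% GC the shares were 5.98% under KLF5 and 7.50% of all windows, between 60 and 70% GC 4.26% and 4.06%, and above that 3.41% and 1.88%. The TEAD core GGAATG was found in 10.2%, 10.1% and 14.7%. The GRHL motif AACCNGTT was found in 1.58%, 1.35% and 2.08%, CATGTC of the p53 family in 4.68%, 5.89% and 10.1%, and AGATAA, which GATA factors bind, in 2.92%, 4.22% and 11.2%. Every motif was searched on both strands.

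Most genes behind the peaks were expressed. The 2333 peaks reached the starts of 2849 genes, which is 30.9% of the 9217 genes with an active promoter, and 89 genes had 2 or more peaks. In E17.5 Klf5+/- libraries their median level was 10.3 RPKM, a count divided by gene length and library size, with 85.0% at 1 RPKM or more, against 8.13 and 82.8% for the 6293 genes with an active promoter and no KLF5 peak. Among tested genes ranked by that level, the share with a KLF5 peak at an active promoter was 3.91% in the lowest of 10 equal classes and 31.6% in the highest. Among genes with any active promoter the same share was 34.7% in the lowest class, 26.1% in the fifth and 38.9% in the highest. The level did not run with KLF5 fold enrichment over 2598 tested genes (Spearman's rho -0.01).

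**Figure D4:**
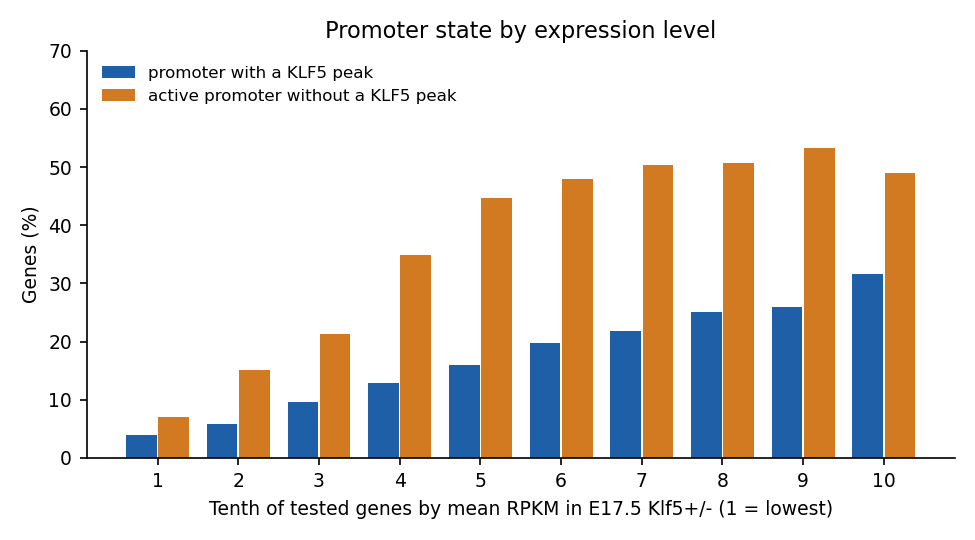
Percent of genes with an active promoter that has a KLF5 peak (blue) or no KLF5 peak (orange) in 10 equal classes of tested genes by mean RPKM in the E17.5 Klf5+/- libraries, from the lowest (1) to the highest (10). The blue bars rise from 3.91% to 31.6%.

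The sorted cells were rich in keratinocyte markers, and also in suprabasal ones. The summed level of 6 keratinocyte markers was 22320 to 29240 CPM, counts scaled to library size, over the 6 E17.5 libraries. That of 5 suprabasal markers was 56330 to 71520 CPM in Klf5+/- and 30040 to 47870 CPM in Klf5-/-. Endothelial markers (4) summed to 0.631 to 2.65 CPM, immune markers (5) to 13.5 to 31.4 and melanocyte markers (4) to 308 to 378. Fibroblast and erythroid markers were also present, as given below. None of these 6 keratinocyte markers and none of 5 suprabasal markers had a KLF5 peak that met every condition, and neither did any of the markers of other cell types. Few had an active promoter at all: 1 of the 6 keratinocyte markers, 0 of the 5 suprabasal ones and 1 of 6 fibroblast ones. No other marker had one, so the absence says little about KLF5 itself. The RNA libraries held 34486898 to 46445546 counts in genes in the sorted E17.5 set, and 31819010 to 44336888 in the other. The counts of Klf5 itself did not fall with the label Klf5-/-. Its promoter had a KLF5 peak 121 bases before the start, with a fold enrichment of 3.78. Its level at E17.5 was 181, 199 and 163 CPM in Klf5+/- and 197, 177 and 174 CPM in Klf5-/- (log2 fold change 0.02, standard error 0.10, edgeR adjusted p = 0.982). In the HFD set it was 62.8 and 42.8 CPM in Klf5+/- and 101.1 and 120 CPM in Klf5-/- (log2 fold change 1.06, standard error 0.23, edgeR adjusted p = 0.0533). It passed by DESeq2 (adjusted p = 0.0012), and by edgeR with no filter on low counts (adjusted p = 0.00172) or with the replicate number as a block (adjusted p = 0.0462). The labels do not say which part of the gene was deleted, so its counts do not check them, and a fold change below is that of libraries labelled Klf5-/- over libraries labelled Klf5+/-.

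At E17.5 no gene with a KLF5 promoter peak passed the test between genotypes. None of 2598 tested genes had an adjusted p under 0.05 by edgeR's quasi-likelihood test, against 13 of all 15092 tested genes (0.0861%, with 0.0331% higher and 0.0530% lower in Klf5-/-). At an unadjusted p under 0.05 there were 195 (7.51%), against 10.0% of all genes and 7.08% of genes with an active promoter and no KLF5 peak. The median log2 fold change of the KLF5 promoter genes was -0.0001, with quartiles at -0.09 and 0.09, and that of all tested genes 0.01. Markers of differentiation and of some other cell types moved with genotype in these libraries. The 5 suprabasal markers summed to 56330 to 71520 CPM in Klf5+/- and 30040 to 47870 CPM in Klf5-/-. The 6 fibroblast markers summed to 418 to 568 and 605 to 681.5 CPM, and the 3 erythroid markers to 13.3 to 943.5 and 224 to 2368 CPM. The erythroid sums overlapped and the others did not. None of these 14 markers was called, and their part in the results was not tested. DESeq2 called 42 of the KLF5 promoter genes (1.62%), 3 higher and 39 lower in Klf5-/-. Over all genes it called 461 (3.055%), 125 higher and 336 lower, so most calls were lower there too. On the same 6 libraries edgeR with no filter on low counts called 22 of the KLF5 promoter genes (0.792%) beside 237 of all genes (1.02%). The outcome also depended on the library of Klf5-/- replicate 3. Without it, edgeR called 43 of these genes (7 higher and 36 lower, 1.64%) beside 513 of all genes (130 higher and 383 lower, 3.31%). In each of 4 equal classes of KLF5 fold enrichment the median log2 fold change lay between -0.0012 and 0.0027.

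Dgat2 and Klf3 did not pass by edgeR and did by DESeq2 on the same 6 libraries, with adjusted p of 3.06e-05 and 0.00178. Dgat2, which makes triglycerides, was at 147, 172 and 129 CPM in Klf5+/- and at 72.8, 69.4 and 102 CPM in Klf5-/-, so the groups did not overlap (log2 fold change -0.88, standard error 0.16, edgeR adjusted p = 0.0868). Without Klf5-/- replicate 3 its value was -1.07 (adjusted p = 0.000857). Klf3, a relative of KLF5 known as a repressor, was at 90.2, 84.9 and 75.1 CPM in Klf5+/- and at 61.2, 61.7 and 57.1 CPM in Klf5-/- (log2 fold change -0.47, standard error 0.09, edgeR adjusted p = 0.0868). Cers3 was at 71.5, 79.9 and 82.2 CPM in Klf5+/- and at 55.4, 53.4 and 72.4 CPM in Klf5-/-, where replicate 3 was the highest of its group (log2 fold change -0.37, adjusted p = 0.293, and -0.52 with 0.0166 without that library). Genotypes that did not overlap in CPM were found in 14.7% of all tested genes.

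In the HFD set 52 of 2595 tested genes with a KLF5 promoter peak passed, 30 higher and 22 lower in Klf5-/-. That is 2.00%, against 5.50% of all tested genes (872 of 15848, of which 1.48% higher and 4.02% lower) and 2.40% of genes with an active promoter and no KLF5 peak. The median log2 fold change was 0.10 over the KLF5 promoter genes and -0.01 over all genes. With library totals alone as the scale the median of all genes moved to -0.23 and that of the KLF5 promoter genes to -0.13. The calls among KLF5 promoter genes moved to 14 higher and 64 lower, and those over all genes to 138 higher and 1202 lower. The balance of directions in the KLF5 promoter genes thus depends on the scaling. The calls depended on single libraries. Their number moved widely, in these genes and over all genes, when 1 library was left out, which leaves 1 library in its group. The median log2 fold change of the KLF5 promoter genes then lay between 0.09 and 0.15, and that of all genes between -0.0226 and 0.0045. Markers of some other cell types moved with genotype in these unsorted libraries. The 6 fibroblast markers summed to 15540 and 18920 CPM in Klf5+/- and to 680 and 4362 CPM in Klf5-/-. The 4 endothelial markers summed to 246 to 283 and to 11.1 to 47.2 CPM. No fibroblast marker and 2 endothelial markers were called lower. The 3 adipocyte markers, 2 of them called lower, summed to 608 to 976 CPM in Klf5+/- and 136 to 211 CPM in Klf5-/-. The 3 muscle markers summed to 465.5 to 1551 and 49.8 to 488 CPM. Melanocyte markers (4) overlapped, at 145 to 178 and 110 to 207 CPM, with none called. Immune markers (5) summed to 119.9 to 137.7 and 63.85 to 102.2 CPM, with 1 called lower and a median log2 fold change of 0.06. Merkel cell markers (3) summed to 10.3 to 10.4 and 7.98 to 8.23 CPM, with none called. All 3 erythroid markers were called lower, with sums of 804 to 850.2 CPM in Klf5+/- and 289.5 to 374 CPM in Klf5-/-. Keratinocyte markers summed to 9717 and 15310 CPM in Klf5+/- and to 18700 and 19980 CPM in Klf5-/-. The 5 suprabasal markers summed to 19190 and 20190 CPM in Klf5+/- and to 41760 and 45390 CPM in Klf5-/-, with a median log2 fold change of 1.09 and 1 of them called higher. None of these markers was at 0 counts in either genotype, and their part in the results was not tested. Fewer cells of a type and less RNA per cell cannot be told apart in these libraries.

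Gltp and Fabp5, which bind lipids, were among the genes that rose most. Gltp, which transfers glycolipids between membranes, was at 339.7 and 349.9 CPM in Klf5+/- and at 809 and 1178 CPM in Klf5-/- (log2 fold change 1.53, standard error 0.25, edgeR adjusted p = 0.038). Fabp5, the epidermal fatty acid-binding protein, was at 1019 and 1248 CPM in Klf5+/- and at 3430 and 4425 CPM in Klf5-/- (1.79, standard error 0.26, adjusted p = 0.0339). Both were higher in 2 of 2 Klf5-/- libraries, as were all genes called higher here, and 60.1% of all tested genes did not overlap between genotypes in this set. Tubb2a was at 101.1 and 146 CPM in Klf5+/- and at 318 and 546.5 CPM in Klf5-/- (1.81), and Pard6b, the polarity gene shown above, at 4.15 and 3.15 CPM and at 10.9 and 11.3 CPM (1.60). The others of the 10 with the largest rise were Avpi1 (1.41), the steroid reductase gene Srd5a1 (1.38), the heat shock gene Hspa4l (1.37), the tight junction gene Cldn4 (1.35), the stress kinase gene Mapk13 (1.34) and the protease inhibitor gene Serpina3i (1.32). The edgeR adjusted p of these 10 genes ran from 0.0338 to 0.0422.

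Of the 10 genes that fell most, all but Ugdh and Fzd2 had 0.669 to 13.6 CPM in the E17.5 libraries. Gpr153, an orphan receptor gene, was at 35.6 and 39.4 CPM in Klf5+/- and at 7.50 and 4.78 CPM in Klf5-/- (log2 fold change -2.61, standard error 0.28, edgeR adjusted p = 0.0337), and at E17.5 its 6 libraries lay between 3.44 and 7.33 CPM. Wipi1, an autophagy gene, was at 55.7 and 54.1 CPM in Klf5+/- and at 18.98 and 11.0 CPM in Klf5-/- (-1.87). Ugdh, which makes the sugar nucleotide for glycosaminoglycans, was at 122 and 147 CPM in Klf5+/- and at 54.4 and 46.1 CPM in Klf5-/- (-1.42). The Wnt receptor gene Fzd2 had -1.35, the Wnt modulator gene Dact3 -1.86, Ikbip -2.10, the kinesin-like gene Stard9 -1.90, the glycosyltransferase gene Kdelc2 -1.76, the ADP-ribosyltransferase gene Parp3 -1.65 and Plekho2 -1.55, with adjusted p from 0.0337 to 0.0474. They fell in the libraries in which the fibroblast and endothelial markers were lower, and that part was not tested.

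**Figure D5:**
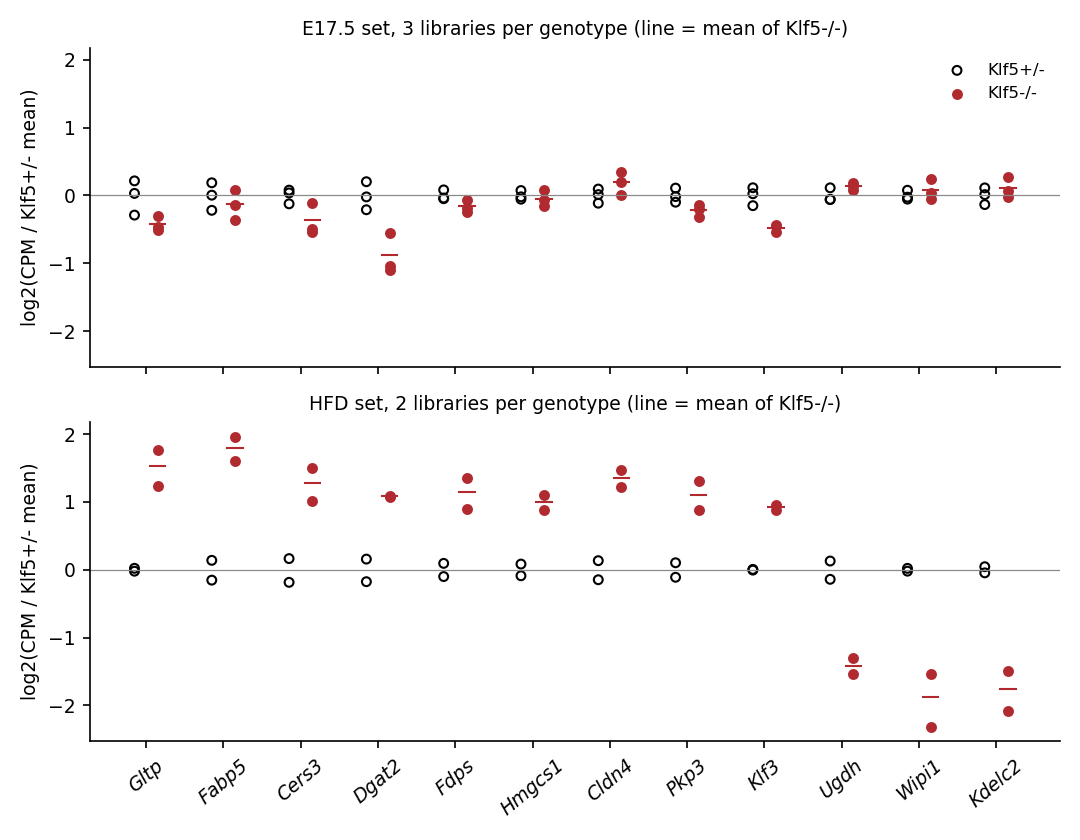
Level of 12 genes with a KLF5 promoter peak in each library, as log2 of CPM over the mean of the Klf5+/- libraries of the same set, for E17.5 (upper panel) and the HFD set (lower panel), with open points for Klf5+/-, filled points for Klf5-/- and a line at the mean of the latter. The 12 were picked from the genes called in HFD, so their separation and their directions there follow from the choice. In the HFD set 9 of them lie above and 3 below all Klf5+/- points. In that set 60.1% of all tested genes did not overlap between genotypes, and 30 KLF5 promoter genes were called higher and 22 lower. At E17.5 the points of most of the 12 overlap or lie close.

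The 2 sets differed for about as large a share of these genes as of all genes. In 1 model over all 10 libraries the genotype effect differed between the HFD set and E17.5 for 353 of 2648 tested KLF5 promoter genes (13.3%), 259 with the higher effect in HFD and 94 with the lower, against 2534 of 17260 tested genes (14.7%, with 7.07% higher and 7.61% lower) and 12.8% of genes with an active promoter and no KLF5 peak. Of the 52 genes called in HFD, 14 had the same sign of log2 fold change at E17.5. The same share was not computed over all genes called in HFD, so the count cannot be read as particular to KLF5 promoter genes. None of the 52 was called at E17.5, where the quartiles over KLF5 promoter genes were -0.09 and 0.09, so a sign can rest on a value near 0. The sets also differ in sorting and in library kit, so stage, preparation and the meaning of HFD cannot be told apart.

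KLF and SP factor genes were often KLF5 promoter genes: 11 of the 26 in the gene table (42.3%), against 7.33% of all gene starts on these chromosomes, and 11 of the 15 with an active promoter. These are Klf3, Klf4, Klf5, Klf9, Klf10, Klf11, Klf13, Klf16, Sp1, Sp3 and Sp4. Sp4 had the highest KLF5 fold enrichment of them (5.28), then Klf3 (5.16) and Klf11 (4.87). In HFD 1 of the 11 passed, Klf3, which was at 35.4 and 35.1 CPM in Klf5+/- and at 65.2 and 68.0 CPM in Klf5-/- (edgeR adjusted p = 0.0391 for a log2 fold change of 0.92; with library totals alone adjusted p = 0.0539). At E17.5 none did. The median log2 fold change of the 11 was -0.01 at E17.5 and 0.14 in HFD, and 0.06 and -0.08 with library totals alone. AP-1 and immediate early genes, which respond to growth factors and stress, were KLF5 promoter genes in 9 of 19 cases, with Mafk (KLF5 fold 4.91), Jund (4.79) and Fosl1 (4.49) the highest. None of the 9 passed in either set, and their median was -0.03 at E17.5, 0.04 with library totals alone, and 0.45 in HFD.

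Among regulators of epidermis, 4 of 36 were KLF5 promoter genes: Foxn1 (KLF5 fold 5.91), Ovol1 (5.02), Tead1 (3.88) and Cebpa. None of the 4 passed in either set. Ovol1, a regulator of the exit from the cell cycle in epidermis, had -0.38 at E17.5 (adjusted p = 0.285) and 1.00 in HFD (adjusted p = 0.0705). The 4 had a median of -0.30 at E17.5 and 0.69 in HFD.

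Lipid lists showed KLF5 at a part of each pathway. Of 42 sphingolipid and ceramide genes, 11 were KLF5 promoter genes and 27 had an active promoter. The highest KLF5 fold enrichments were at Arv1 (6.42), which moves sterols, at Sptssa (4.80), a small subunit of serine palmitoyltransferase, and at the ceramide synthase gene Cers5 (4.74). The catalytic subunit genes Sptlc1 and Sptlc2, the regulators Ormdl2 and Ormdl3, the desaturase gene Degs1, the sphingomyelinase gene Smpd3 and the saposin precursor gene Psap were also among them. In HFD 1 of the 11 passed, Cers3, which rose from 82.0 and 104.5 CPM to 188 and 265 CPM (edgeR adjusted p = 0.0418 for a log2 fold change of 1.28). The median of the 11 was 0.56. At E17.5 none passed and the median was -0.05, or 0.02 with library totals alone. Of 19 acylceramide and very long chain fatty acid genes, 5 had an active promoter and Hsd17b12 alone (KLF5 fold 4.23) was a KLF5 promoter gene, with -0.20 at E17.5 (adjusted p = 0.542) and 0.66 in HFD (adjusted p = 0.0716).

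Cholesterol synthesis had 9 KLF5 promoter genes of 24, with 21 active promoters. Srebf2 (KLF5 fold 5.34), Fdft1, squalene synthase (5.26), and Mvk, mevalonate kinase (5.15), had the highest enrichment, and Pmvk, Dhcr7, Hmgcs1, Fdps, Lss and Idi1 were the others. All 9 had a log2 fold change below 0 at E17.5, with none passing, although 2 were above 0 with library totals alone. Their median was -0.18, beside -0.11 for all 24 tested genes of the list. All 9 were above 0 in HFD, with a median of 0.87. In HFD 2 passed: Hmgcs1 rose from 148 and 131.5 CPM to 258 and 299.7 CPM (edgeR adjusted p = 0.0415 for a log2 fold change of 0.99), and Fdps, farnesyl diphosphate synthase, from 47.7 and 54.6 CPM to 95.4 and 131 CPM (1.14, adjusted p = 0.0415). With library totals alone they had adjusted p of 0.056 and 0.0523. Fatty acid and triglyceride synthesis had 6 of 24, Agpat1, Dgat1, Acsl3, Dgat2, Acsl1 and Acly. Dgat2 rose in HFD, from 156 and 196 CPM to 370.0 and 375.5 CPM (1.08, adjusted p = 0.0402), the direction opposite to its E17.5 value.

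A minority of each list of structural genes of the epidermis were KLF5 promoter genes, but many of the listed genes had no active promoter. Among those with one, 5 of 7 basal and hemidesmosome genes and 6 of 11 suprabasal and cornified envelope genes were KLF5 promoter genes. For desmosome and tight junction genes it was 6 of 17, against 30.9% of all genes with an active promoter. Of 23 basal and hemidesmosome genes 5 were KLF5 promoter genes, Itgb1 (KLF5 fold 4.83), Lamb3 (4.25), Cd151 (4.07), Cdh3 and Itgb4, and none passed in either set. Of 45 suprabasal and cornified envelope genes 6 were, Evpl (4.87), Sprr1a (4.62), Casp14 (4.52), Asprv1, Krtdap and Lgals7. None of these 6 passed, with a median of -0.42 at E17.5, where that of all 42 tested genes of the list was also -0.42, and 0.98 in HFD. Sprr1a, a cornified envelope precursor, was at 4.64, 6.31 and 5.96 CPM in Klf5+/- at E17.5 and at 27.7, 44.0 and 8.67 CPM in Klf5-/-, where replicate 3 stood near the Klf5+/- libraries (log2 fold change 2.25, standard error 0.60, edgeR adjusted p = 0.276). Casp14, a caspase of cornification, was at 276, 284.5 and 250.3 CPM and at 149, 136.5 and 235 CPM, with replicate 3 again nearest (log2 fold change -0.64, adjusted p = 0.252). Of 31 desmosome and tight junction genes 6 were KLF5 promoter genes, and 2 rose in HFD, Cldn4 and the plakophilin gene Pkp3 (1.11, adjusted p = 0.0454, and 0.0631 with library totals alone). Ctnna1 (KLF5 fold 6.67), Dsc3 (5.04), Jup (4.61) and Perp did not pass.

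Signalling and growth lists had members but no calls. The EGF receptor list had 4 of 17, Adam10 (KLF5 fold 5.50), the receptor genes Erbb2 (4.51) and Erbb3 (3.91) and the ligand gene Epgn, and the Notch list 4 of 23, Numb, Notch2, Aph1a and Numbl. The Hippo list had 4 of 21, Nf2 (5.95), Vgll4 (5.22), Tead1 and Tead3. Cell cycle and replication genes were KLF5 promoter genes in 9 of 35 cases, among them E2f1 (4.66), Ube2c (4.41) and E2f3 (4.35), and their log2 fold changes were all above 0 at E17.5, with a median of 0.19 beside 0.17 for the list, while 8 of 9 were below 0 in HFD (7 with the size factors of DESeq2). Of 19 chromatin and coactivator genes 6 were, with Kmt2a and Crebbp (4.53) the highest. None of these 5 lists had a KLF5 promoter gene past the test in either set.

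Housekeeping lists differed in how many of their active promoters had KLF5. Of 73 cytosolic ribosomal protein genes with an active promoter 24 (32.9%) had a KLF5 peak, close to the 30.9% of all genes with an active promoter. Of 49 nuclear genes of oxidative phosphorylation 9 (18.4%) had one. For the KLF and SP factors that share was 73.3% and for AP-1 and immediate early genes 64.3%. It was 5 of 7 for basal keratinocyte genes and 6 of 11 for suprabasal and cornified envelope genes. Rpl9 (KLF5 fold 4.99), Rpl27 (4.78) and Rpl18 (4.64) led the ribosomal genes and Ndufb5 (5.58), Uqcrq (5.05) and Ndufv1 (4.92) the respiratory ones, and none of the 33 passed in either set.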

How the data were processed

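The authors deposited MACS2 peak lists on mm10, with fold enrichment (a ratio), -log10 p-value and -log10 q-value for each peak, and gene tables with raw counts per gene and, in some tables, RPKM. Per the submitters' processing notes, STAR 2.6.0b and HTSeq, and Bowtie 1.0.1 or Bowtie2 2.2.3 with MACS2, were used. No source used here gives their parameters, the strand setting or any pooling. Reads that fell in no gene, 13.4 to 16.9% of a library, were left out. Human HaCaT peak lists and the IgG sample were not used here.

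Peaks were joined by overlap of at least 1 base and gene starts were taken from the deposited gene table; summit distances are 1-based. Raw counts were tested with edgeR 4.0.16's quasi-likelihood test (TMM scaling, filterByExpr, robust fit) on each set, with Benjamini-Hochberg adjustment over all genes tested and a threshold of 0.05; the difference of genotype effects was a contrast in 1 model over 10 libraries. CPM are TMM-scaled, and RPKM in the text divide them by the deposited exon length. DESeq2 1.42.0, other scalings, other filters, a replicate block and each library left out were the alternatives. A count of 3 corresponds to 0.0646 to 0.0943 CPM. The code was tested on simulated counts. Motifs were matched by exact letters. Reads of genes that overlap, or that share a start on the other strand, may not be told apart.

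The genes named are the 15 peaks with the highest fold, the 10 called genes with the largest change in each direction in HFD with a mean of at least 1 CPM, the 3 genes of each list with the highest KLF5 fold and any that passed, the 3 peaks on either side of the 1 kb limit, Klf5 and the markers. Some genes of 2 lists are not reported here and are left out of the counts over those lists. Peaks, lists and tests were chosen with earlier results of these data known, so they give no independent support.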

Additional observations from a re-analysis of the deposited data

Results flagged for a closer look

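For 39 of 92 named and tested genes with a KLF5 promoter peak, the genotype effect in the HFD set differed from that at E17.5 by edgeR's test of the difference, with adjusted p from 0.00267 to 0.044. In 27 the effect in HFD was the higher. The values below are log2 fold changes in HFD minus those at E17.5. Over all tested genes the share was 14.7%. Of the 39 genes, 26 passed in HFD, and many of these were named for that reason, so their number is largely set by the choice of genes and is given as a description. The sets differ in sorting, kit and markers of other cell types.

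Among lipid and barrier genes the difference was 1.97 for Dgat2, 1.96 for Gltp, 1.94 for Fabp5, 1.66 for Cers3, 1.60 for Srd5a1 and 0.88 for Hsd17b12. Among cholesterol genes it was 1.32 for Fdps (1.315 before rounding), 1.07 for Fdft1, 1.05 for Hmgcs1 and 0.98 for Mvk. Genes of differentiation and junctions had 1.98 for Casp14, 1.54 for Jup, 1.41 for Evpl, 1.34 for Pkp3, 1.22 for Dsc3 and 1.18 for Cldn4. Regulators had 1.40 for Klf3, 1.40 for Ovol1 and 1.06 for Klf5 itself (1.055 before rounding). The rest above 0 were Tubb2a at 2.23, Pard6b at 1.63, Avpi1 at 1.62, Mapk13 at 1.48, Hspa4l at 1.14, Serpina3i at 1.06, Erbb3 at 0.85 and Tex264 at 0.65.

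The difference was below 0 for 12 genes. It was -2.52 for Parp3, -2.48 for Gpr153, -2.12 for Ikbip, -1.95 for Wipi1, -1.86 for Kdelc2 and -1.77 for Dact3. It was -1.76 for Stard9, -1.62 for Plekho2, -1.54 for Ugdh, -1.49 for Fzd2, -1.08 for E2f1 and -0.75 for Itgb1.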

How the results depend on the processing

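The set of peaks was stable to how overlap and distance were defined and not to the strength asked of a peak: 1528 peaks had a -log10 q-value of at least 5 and 411 one of at least 10, and the other 4 definitions gave 2117 to 2491. The share of windows with a KLF box was 48.4% in windows of 150 bases. Counts of called genes moved with the test. At E17.5 the genes with a KLF5 promoter peak numbered 42 by DESeq2, 22 with no filter on low counts and 2 with the replicate block, and 0 to 43 with 1 library left out. Over all genes the same settings gave 461, 237, 42 and 0 to 513, library totals alone gave 6 and the minimum of 1 CPM gave 2. In HFD the KLF5 promoter genes numbered 312 by DESeq2, 232 with no filter, 161 with the replicate block, and 0 to 704 with 1 library left out. All genes numbered 2906, 2396, 1520 and 19 to 5389, and 1340 with library totals alone. Genes whose effects differed between the sets numbered 162 to 671 with 1 library left out. Same-numbered libraries at E17.5 correlated at 0.072, -0.119 and 0.288 in their deviations from the group means, and the labels do not say that numbers mark shared animals, so the block was not used elsewhere. With a setting other than leaving out a library, 5 calls of named genes in HFD were lost, Ikbip at 1 CPM (edgeR adjusted p = 0.0501) and 4 with library totals alone, and none changed sign. The named calls in HFD did not hold when a Klf5+/- library was left out, which leaves 1 library in that group. None of those genes changed sign then. The log2 fold change of Gltp was 1.51 and 1.55 without Klf5+/- replicate 1 and 2, and that of Cers3 1.12 and 1.46. Klf5 in HFD, and Dgat2 and Klf3 at E17.5, gained calls by DESeq2 and with no filter on low counts, and Klf5 also with the replicate block. The cause of these changes was not tested. With 1 sample per chromatin assay, no peak value could be checked against a replicate.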
